A study of Mus musculus with 3 samples.

Results

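Transcript-poor condensing spermatids were taken as the barcodes with 1000 to under 4000 unique molecular identifiers (UMIs, each counting 1 captured transcript), more than 300 detected genes, under 10% mitochondrial UMIs, and at least 20% of their UMIs on the 4 genes Prm1, Prm2, Tnp1 and Tnp2, called the gate genes below. They were chosen by these measured values, so their UMI totals and gate shares are a description of the choice and not a result. There were 755 of them, all in the wild-type (WT) library, of 17717 barcodes in the 3 libraries that passed the same gene and mitochondrial limits with at least 1000 UMIs. Both mutant libraries held 0.

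The series compared dissociated testicular cells of adult C57BL/6 mice by droplet single-cell RNA sequencing, with a single library per genotype (WT, KO, KI) and 7000 cells loaded for each. KO mice lack gonadotropin-regulated testicular RNA helicase (GRTH, the product of Ddx25), whereas KI mice carry the human GRTH gene with a missense mutation that removes the phosphorylated form of the protein and leaves the non-phosphorylated form. No other allele, cross or agent was given for any group, and WT carried neither change. The labels give 1 mouse of 8 weeks per genotype, and the study's methods describe pooled mice over a wider age range, so the number of animals behind a library is uncertain. Genotypes therefore could not be compared by a test.

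Condensing spermatids are haploid germ cells whose histones are exchanged first for transition proteins, encoded by Tnp1 and Tnp2, and then for protamines, encoded by Prm1 and Prm2, as the nucleus is compacted. Transcription stops during this exchange, so that the last proteins of the sperm are made from stored mRNA, and most of the cytoplasm is later shed. The WT barcodes with the same gate share and at least 4000 UMIs, called transcript-rich, served as the comparison throughout. WT held 1353 of these, whereas the KO library had 0 and the KI library 3.

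The promoters of 4 genes are printed because these genes frame the pattern described below. Prm1 and Prm2 are the gate genes whose balance divided the transcript-poor barcodes, Hk1 had the highest ratio of the genes compared, and H2al3 was among the lowest. Each sequence is the 250 bases before the start site in RefSeq on GRCm38.p6, read 5′ to 3′ on the strand of the gene. Capitals mark TGATGTCA, a near match to the cyclic AMP response element TGACGTCA (none of the 4 windows held the exact element), and the TATA box letters TATAAA, each searched on both strands, where they read TGACATCA and TTTATA. The motifs do not share letters in these windows.
Prm1, chr16:10796824-10797073, minus strand: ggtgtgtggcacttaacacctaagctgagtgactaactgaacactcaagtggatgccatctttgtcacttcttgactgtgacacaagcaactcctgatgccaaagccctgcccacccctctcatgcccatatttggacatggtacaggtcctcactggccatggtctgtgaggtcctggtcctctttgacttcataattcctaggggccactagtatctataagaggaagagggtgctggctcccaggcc
Prm2, chr16:10792106-10792355, minus strand: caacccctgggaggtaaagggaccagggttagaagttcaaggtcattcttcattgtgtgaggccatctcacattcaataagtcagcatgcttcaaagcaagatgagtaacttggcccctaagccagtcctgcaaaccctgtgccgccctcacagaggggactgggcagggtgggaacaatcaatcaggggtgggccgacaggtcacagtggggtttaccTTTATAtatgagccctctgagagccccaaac
Hk1, chr10:62379909-62380158, minus strand: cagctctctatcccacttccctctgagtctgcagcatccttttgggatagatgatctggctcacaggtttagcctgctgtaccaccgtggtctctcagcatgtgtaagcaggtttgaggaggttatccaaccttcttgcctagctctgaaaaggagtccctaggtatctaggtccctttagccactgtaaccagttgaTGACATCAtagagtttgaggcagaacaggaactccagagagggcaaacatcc
H2al3, chrX:9849453-9849702, plus strand: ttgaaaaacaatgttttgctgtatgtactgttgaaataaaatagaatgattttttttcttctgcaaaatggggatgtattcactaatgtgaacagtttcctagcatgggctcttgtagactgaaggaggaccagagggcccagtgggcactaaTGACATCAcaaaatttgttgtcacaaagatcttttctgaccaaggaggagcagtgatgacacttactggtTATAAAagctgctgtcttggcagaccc
The response-element-like letters began 52 bases before the start of Hk1 and 97 bases before that of H2al3. They were absent from the windows of Prm1, Prm2 and the other listed start of Hk1. Other near matches were not searched, and the Prm1 window holds tgacttca, which also differs from the exact element by 1 letter. Its lack of capitals therefore does not mean that it lacks a similar site. Of the gate genes not printed, Tnp1 held the searched letters 94 bases before its start and Tnp2 did not hold them. Thus a gene with a high ratio and a gene with a low one both carried these letters. They stood in 2.93% of all 32851 promoters of this length, and in at least 1 promoter of 3.41% of the 27025 genes with a window. The TATA letters stood in 12.4% of all promoters and the exact element in 1.55%. Only 46 of the 66 genes that were higher in transcript-poor barcodes, and 1055 of the 1347 compared below, had a window, fewer than 80% of each, so a comparison of motif shares between such sets is void and is not given. The letters were chosen after they had been seen in some of these windows.

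In WT, the 755 transcript-poor barcodes made up 11.9% of the 6367 barcodes that passed the limits (11.1 to 12.7, exact 95% binomial interval) and 24.6% of the 3073 with 1000 to under 4000 UMIs. This interval and those that follow cover counting error only. In KO, 0 of 8215 barcodes met the rule, and a count of 0 allows a share of up to 0.0365%, taken as 3 counts of the total. In KI, 0 of 3135 did, which on the same basis allows up to 0.0957%. Only 1 WT barcode of the right size and gate share failed the mitochondrial limit, and 0 failed the gene limit. Of the 755 barcode sequences, 1 was also kept in KO and 1 in KI. The libraries held 82973909 (WT), 91388296 (KO) and 73150373 (KI) UMIs. As a check of the labels, barcodes with at least 500 UMIs of the WT, KO and KI libraries held 8091, 24 and 4979 UMIs of Ddx25.

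**Figure D1:**
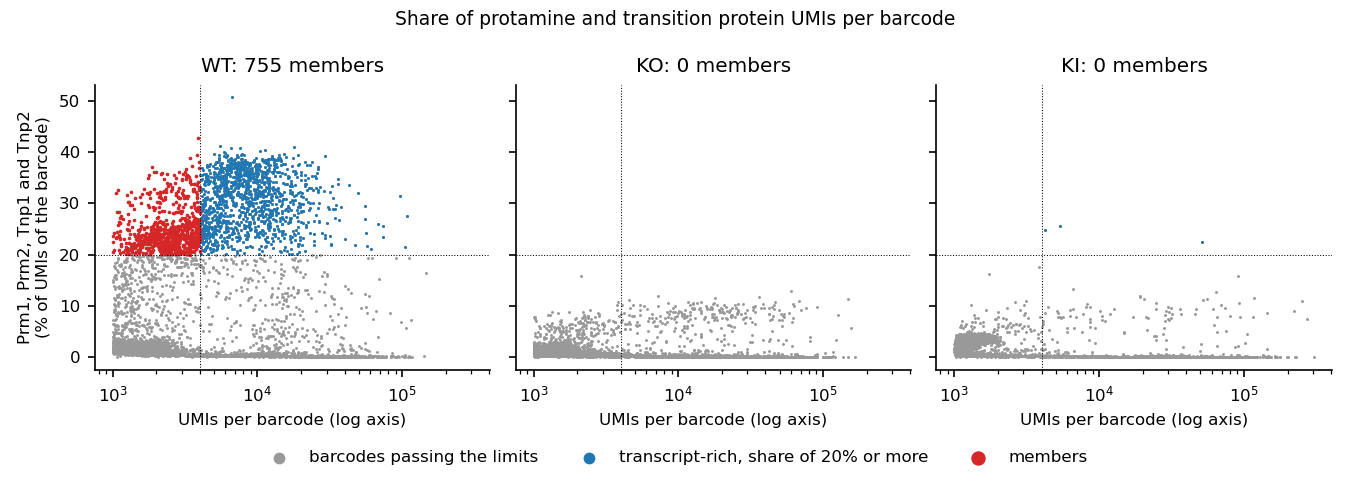
Share of Prm1, Prm2, Tnp1 and Tnp2 among the UMIs of each barcode (vertical axis, percent) against its UMI total (horizontal axis, log scale) in the WT, KO and KI libraries. Each point is 1 barcode that passed the gene and mitochondrial limits; the 755 transcript-poor barcodes (red) and the 1353 transcript-rich ones (blue) are in WT, and 3 blue points are in KI.

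Few barcodes of the mutant libraries came near the rule. Among KO barcodes with 1000 to under 4000 UMIs the highest gate share was 15.8%, and 3 reached 10%. In KI the highest was 17.6%, and 6 reached 10%. WT held 1067 barcodes of at least 10% in that range. The KO barcode with the highest share held 2134 UMIs, of which 333 were Prm2, 2 were Prm1, 2 were Tnp1 and 0 were Tnp2. It therefore had the composition of the Prm2-led WT barcodes described below. The other 2 KO barcodes held 134 Prm2 against 121 Prm1 UMIs and 64 against 184. Of the 6 KI barcodes, the 1 with the highest share held 230 Prm2 and 234 Prm1 UMIs. A KI barcode of 6570 UMIs, with a gate share of 13.2%, held 805 Prm2, 53 Prm1, 9 Tnp2 and 0 Tnp1 UMIs. Whether these single barcodes came from the mutant animals or from cells or reads of another library was not tested.

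The median transcript-poor barcode held 2519 UMIs and 769 genes (404 to 1533 genes), against 8096 UMIs and 1635 genes in the median transcript-rich barcode. Fewer transcripts in a cell and a lower capture of its transcripts cannot be told apart from these counts. Barcodes ranked 45000 to 90000 by UMIs, taken as droplets without a cell, held a median of 209 UMIs in WT. That equals 8.30% of the median transcript-poor barcode and 2.58% of the median transcript-rich one, so free RNA can weigh more on the former. The gate genes were 4.88%, 1.77% and 2.40% of the UMIs of these empty barcodes in the WT, KO and KI libraries. After each barcode was thinned to 1000 UMIs, the median number of genes was 418 in transcript-poor, 438 in transcript-rich and 743 in other WT barcodes of 1000 to under 4000 UMIs with a gate share under 5%. The 10 most abundant genes outside the gate took 13.8% of the UMIs outside the gate in transcript-poor barcodes and 8.15% in transcript-rich ones. With the gate genes included, the 10 most abundant genes took 32.9% and 34.2% of all UMIs. Both spermatid groups thus detected fewer genes at 1000 UMIs than the other WT barcodes. The thinned UMIs included the gate genes. Their median share was 23.5% in transcript-poor, 31.0% in transcript-rich and 1.36% in the other barcodes, by the choice of the groups. Part of the gap is therefore set by the rule, and its size was not tested. The transcript-poor barcodes had more of their UMIs outside the gate on a few genes than the transcript-rich ones.

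The label was checked against markers outside the gate. The 9 late spermatid markers (Prm3, Odf1, Oaz3, Smcp, Tssk6, Spem1, Gapdhs, Akap4 and Hils1) summed to 45347 counts per 1000000 UMIs (CPM) in transcript-poor barcodes, 30167 in transcript-rich ones and 5343 in the other WT barcodes of the same UMI range. CPM are scaled here to the UMIs outside the gate genes. All 9 were detected. In the Prm2-led and Prm1-led ranges defined below, the sum was 52053 and 29226 CPM, so only the former stood above the transcript-rich level. Against transcript-rich barcodes, 7 of the 9 had a log2 ratio above 0, and 2 of them were at least 2-fold higher. Among all 1347 genes compared below, 533 had a ratio of 0 or more. Hils1 and Prm3 were lower, with log2 ratios of -1.81 and -0.51. The 6 round spermatid markers summed to 262 CPM, with 379 UMIs where the empty profile would give 262, and to 246 CPM in transcript-rich barcodes. The 7 spermatocyte markers summed to 172 CPM, with 248 UMIs against 155 from the empty profile. The markers of spermatogonia, Sertoli cells, Leydig cells, stromal and myoid cells and red blood cells came to 11, 42, 2, 5 and 1 UMIs in all 755 barcodes, with 4 of 7, 3 of 6, 4 of 5, 3 of 6 and 3 of 4 genes at 0. Those sums were 7.61, 29.1, 1.38, 3.46 and 0.692 CPM. For macrophages, 6 of 7 markers were at 0 and C1qb alone gave 92 UMIs. C1qb was at 63.6 CPM, against 44.6 in transcript-rich and 7.65 in empty barcodes, and the part of macrophages in it was not tested. The label of condensing spermatids was kept on the late spermatid markers.

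The shares of the gate genes are given as a description, since the rule fixed their sum to at least 20% of the UMIs of each barcode. Prm2 made up 17.2% of their UMIs and 9.75% of those of the transcript-rich barcodes. Prm1 made up 5.63% and 12.5%. Tnp1 made up 1.03% and 3.62%, and Tnp2 1.15% and 4.41%. These pooled values mix barcodes of different composition, which are separated further on. Per barcode, Prm2 had a median of 454 UMIs (56 to 971) in transcript-poor and 831 (203 to 8521) in transcript-rich barcodes. Prm1 had a median of 73 (2 to 896) against 1117 (11 to 12206). Tnp1 had a median of 3 (0 to 264) against 341 (0 to 4053), and 67 of the 755 barcodes had none. Tnp2 had a median of 6 (0 to 268) against 357 (3 to 6647). The ranges of each gene overlapped between the 2 groups. The empty profile would give 4.08 Prm1, 2.63 Prm2, 1.72 Tnp1 and 1.77 Tnp2 UMIs per barcode, so the median Tnp1 count of the transcript-poor barcodes was near that level.

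**Figure D2:**
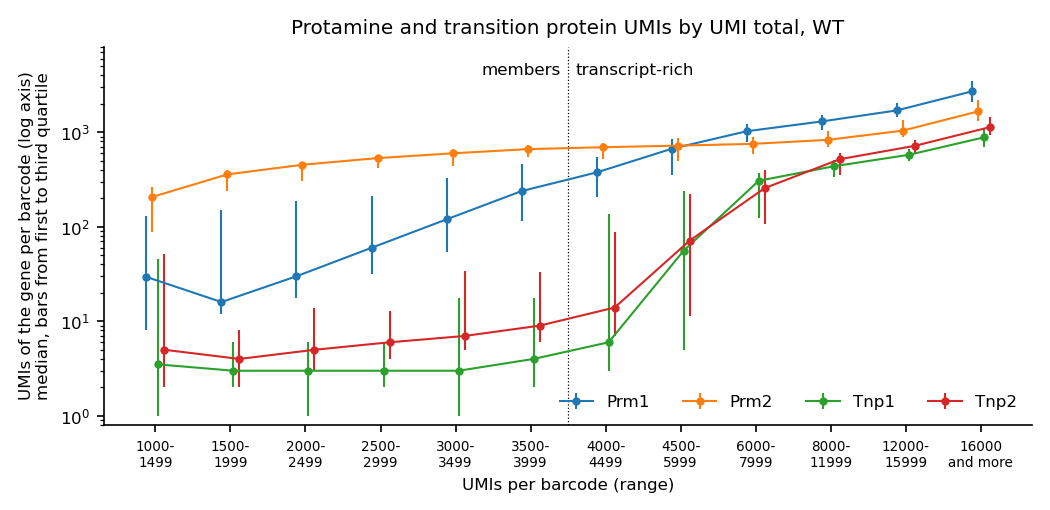
UMIs of Prm1, Prm2, Tnp1 and Tnp2 per barcode (vertical axis, log scale) over ranges of the UMI total of the barcode (horizontal axis) among the WT barcodes with a gate share of at least 20%. Points are medians and bars run from the first to the third quartile; the median of Prm2 goes from 755 at 6000 to under 8000 UMIs to 695.5 at 4000 to under 4500, whereas Tnp1 goes from 307 to 6.

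Arranged by UMI total, the medians of the gate genes were lower at lower totals, to different degrees. From 8000 to under 12000 UMIs the medians were 1304 Prm1, 832.5 Prm2, 437.5 Tnp1 and 519.5 Tnp2 UMIs. From 4000 to under 4500 UMIs they were 376.5 Prm1, 695.5 Prm2, 6 Tnp1 and 14 Tnp2. From 1500 to under 2000 UMIs they were 16 Prm1, 359 Prm2, 3 Tnp1 and 4 Tnp2. From 1000 to under 1500 UMIs they were 29.5 Prm1, 207.5 Prm2, 3.5 Tnp1 and 5 Tnp2, so that Prm1 did not go on falling to the lowest totals. The rule sets both the total and the least sum of the 4 genes in each range, so these medians are a description of the choice. The medians pool barcodes of different composition, and from 4000 to under 4500 UMIs the third quartiles of Tnp1 and Tnp2 were 138 and 88.8 UMIs. A UMI total is not a stage, and the order in time was not tested. Barcodes just inside and just outside the UMI limit differed in degree. The 119 with 3500 to under 4000 UMIs had a median gate share of 24.8% and a median Prm2 fraction (Prm2 as a percentage of Prm1 and Prm2 UMIs) of 74.5%. The 136 with 4000 to under 4500 UMIs had 25.9% and 64.4%. At the limit on gate share, the 193 barcodes between 20% and 22% had a median Prm2 fraction of 92.8%, and the 111 just below it, between 18% and 20%, also had 92.8%.

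The Prm2 fraction was high in most transcript-poor barcodes and low in a smaller group. Its median was 88.2% in transcript-poor and 38.7% in transcript-rich barcodes. Among the 755, 448 had a fraction of at least 80% and are called Prm2-led, 194 had a fraction under 50% and are called Prm1-led, and 113 lay between. These limits were set after the distribution had been seen, and they are ranges of 1 score, not cell types. Near them lay 33 barcodes from 75% to 80%, 38 from 80% to 85%, 17 from 45% to 50% and 13 from 50% to 55%. Of the transcript-rich barcodes, 113 were Prm2-led, 1050 Prm1-led and 190 between. The share of Prm2-led barcodes was 51.2% from 1000 to under 1500 UMIs, where 44.0% were Prm1-led, 69.2% from 1500 to under 2000 UMIs, 35.3% from 3500 to under 4000, 22.1% from 4000 to under 4500 and 3.09% from 8000 to under 12000.

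**Figure D3:**
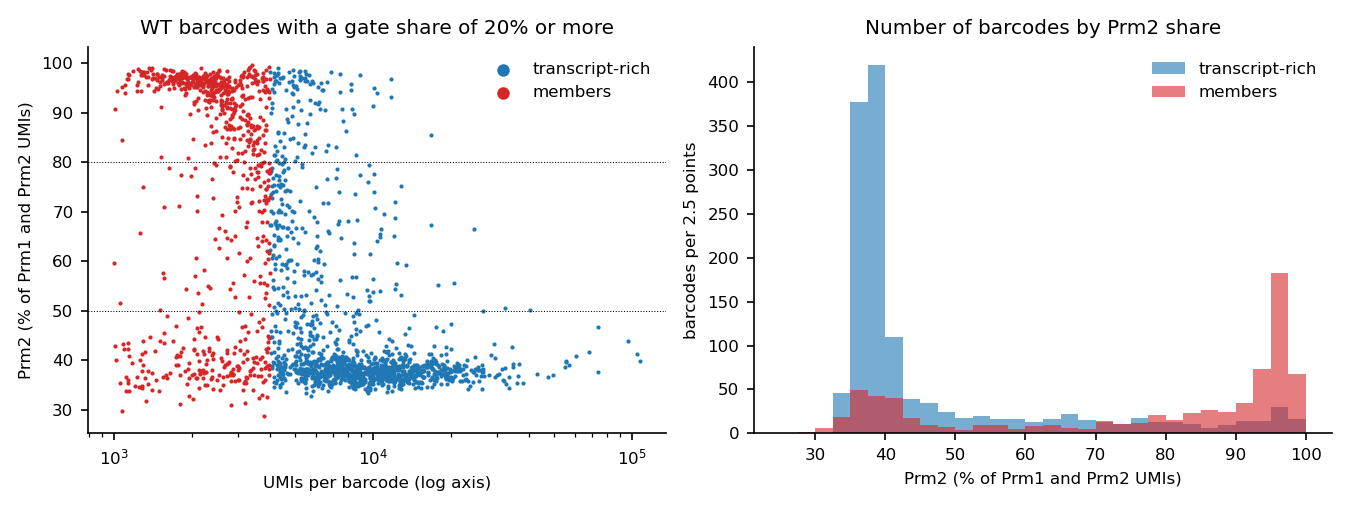
Prm2 as a percentage of Prm1 and Prm2 UMIs in each WT barcode with a gate share of at least 20%, against its UMI total on a log scale (left), and the number of barcodes in steps of 2.5 points (right). Transcript-poor barcodes (red) gather above 90% and near 38%; transcript-rich barcodes (blue) gather near 38%, with 113 above the dotted line at 80%.

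Both ranges held few UMIs, with a median of 2420.5 in Prm2-led and 2369.5 in Prm1-led barcodes. The ranges were set on Prm1 and Prm2, within a gate on the sum of the 4 genes. The Prm1 and Prm2 values that follow are therefore a description of the choice. Prm2-led barcodes held a median of 24 Prm1, 507 Prm2, 2 Tnp1 and 4 Tnp2 UMIs, or 1.52%, 20.9%, 0.0952% and 0.184% of their UMIs. Prm1-led barcodes held 312 Prm1, 197.5 Prm2, 84.5 Tnp1 and 83.5 Tnp2 UMIs, or 13.5%, 8.86%, 3.80% and 3.93%. The latter were close to the composition of Prm1-led transcript-rich barcodes, with 13.4%, 8.44%, 4.16% and 5.04%. For Prm1 and Prm2, the same limit had been set on both groups. The median number of genes at 1000 UMIs was 404 in Prm2-led and 473 in Prm1-led transcript-poor barcodes. In transcript-rich barcodes it was 386 and 454. Within each of these ranges the transcript-poor value was thus the higher one, unlike the pooled values of 418 and 438. The median gate share was lower in these transcript-poor barcodes, at 22.5% against 23.7% (Prm2-led) and 30.1% against 32.8% (Prm1-led). A lower gate share leaves more of the 1000 UMIs for other genes, and its part in these differences was not tested. In the empty profile the Prm2 fraction was 39.1%, as in the Prm1-led range, but the gate share there was 4.88% against a median of 30.1%.

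The transcripts outside the gate were compared on summed UMIs. Of 1347 genes with a mean of at least 100 CPM over both groups, 66 were at least 2-fold higher in transcript-poor than in transcript-rich barcodes, or 4.90%. Another 338, or 25.1%, were at least 2-fold lower, and the median log2 ratio was -0.31. These are calls by size without a test, since both groups came from 1 library. Against transcript-rich barcodes with 4000 to under 8000 UMIs only, which hold more Prm2-led ones, 0 genes were higher and 107 lower. With CPM of all UMIs, gate genes included, 107 were higher and 277 lower, and the median of all genes shifted by 0.11 on the log2 scale. Per barcode, 0 of the 1347 genes had more UMIs in transcript-poor barcodes, and the median log2 difference in mean UMIs per barcode was -2.21. Over all transcript-poor barcodes, a higher relative level therefore describes a gene whose counts were lower by less than those of the others. In the Prm2-led transcript-poor barcodes alone, 1 of the 1347 genes had at least as many UMIs per barcode as in all transcript-rich ones.

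Hk1, which encodes the hexokinase that starts glycolysis, had the highest ratio. It stood at 1240 CPM in transcript-poor and 411 CPM in transcript-rich barcodes, a log2 ratio of 1.59 (1.51 to 1.67, exact 95% interval). Its mean was 2.37 UMIs per barcode against 2.93, with medians of 2 and 2 (0 to 12 and 0 to 26), so that the group counts were closer than the totals. By UMI range, Hk1 averaged 1.32 UMIs from 1000 to under 1500, 2.24 UMIs from 1500 to under 2000, 2.55 from 3500 to under 4000, 2.62 from 8000 to under 12000 and 3.99 from 12000 on. In Prm2-led barcodes alone it averaged 2.77 UMIs from 1000 to under 2000, 3.34 from 2000 to under 3000 and 3.96 from 3000 to under 4000. The last 2 of these lie above the mean of 2.93 in all transcript-rich barcodes. Nbr1, a receptor of selective autophagy, was at 1449 against 544 CPM, a log2 ratio of 1.41 (1.34 to 1.49). It averaged 1.80 UMIs per barcode from 1000 to under 1500 UMIs, 2.51 from 1500 to under 2000, 3.49 from 8000 to under 12000 and 5.69 from 12000 on.

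Of the other 10 genes among the 12 with the highest ratios, 5 were, like Hk1 and Nbr1, higher in Prm2-led barcodes and lower in the empty profile than in transcript-rich ones. Phkg2, the catalytic subunit of phosphorylase kinase, had a log2 ratio of 1.24. Spem2, a relative of the spermatid maturation gene Spem1, had 1.23. Tppp2, a tubulin-binding protein of the sperm tail, stood at 3353 against 1466 CPM, a log2 ratio of 1.19 (1.15 to 1.24). Bri3bp and the X-linked Gm614 had 1.27 and 1.20. In these genes and in Hk1 and Nbr1, the Prm2-led barcodes carried the difference, with log2 ratios against all transcript-rich barcodes from 1.58 in Gm614 to 2.09 in Hk1. In Prm1-led barcodes Hk1 stood at 374 CPM, and the ratio was -0.13.

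The 5 remaining genes of this set stood with the empty profile. Tomm7, a subunit of the mitochondrial import channel, was at 197 CPM in transcript-poor, 72.6 CPM in transcript-rich and 1160 CPM in empty barcodes. Lyar, a nucleolar zinc finger protein, was at 281, 111 and 1971 CPM. Cfap36, a ciliary protein, was at 162, 66.6 and 989 CPM. Acyp1, an acylphosphatase, and Cox7b2, a testis form of a cytochrome c oxidase subunit, were at 1013 and 1053 CPM in the empty profile. When the empty profile was subtracted from both groups, the log2 ratios were 1.02 in Tomm7, 0.55 in Lyar, 0.70 in Cfap36, 0.54 in Acyp1 and 0.64 in Cox7b2. Over the 66 higher genes, 14 were more than 5 times as high in the empty profile as in transcript-rich barcodes, beside 47 of all 1347 genes compared. After subtraction, 53 of the 66 were still at least 2-fold higher.

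**Figure D4:**
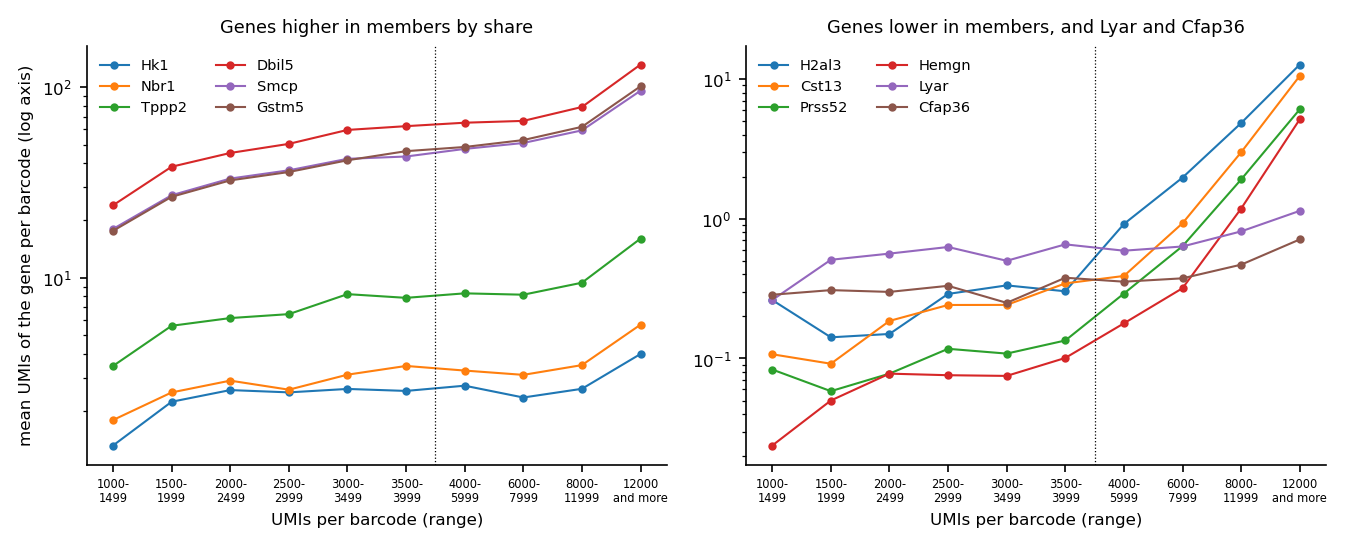
Mean UMIs per barcode (vertical axes, log scale) of 6 genes with high ratios (left) and of 4 genes with low ratios beside Lyar and Cfap36 (right), over ranges of the UMI total among WT barcodes with a gate share of at least 20%; the dotted line is the limit of 4000 UMIs. From 1000 to under 1500 UMIs to 12000 and more, Hk1 goes from 1.32 to 3.99 and H2al3 from 0.262 to 12.7.

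The 10 most abundant transcripts outside the gate had log2 ratios from 0.65 to 1.09 over all transcript-poor barcodes, from -0.17 to 0.0045 in the Prm1-led ones, and from -0.05 to 0.17 with a gate of 30%. Dbil5, an endozepine-like acyl-CoA binding protein of spermatids, stood at 24930 against 11926 CPM, a log2 ratio of 1.06 (1.05 to 1.08). It had a median of 49 UMIs per barcode (2 to 163) against 70 (15 to 741). Smcp, a cysteine-rich protein of the mitochondrial capsule, stood at 17859 against 8836 CPM, a log2 ratio of 1.02, with a median of 34 UMIs (2 to 93) against 55 (8 to 430). Hspb9, a small heat-shock protein, and 1700027A15Rik had 1.06 and 1.09. The latter is annotated as an antisense RNA on the plus strand of chromosome 1 from 72984844 to 73025507 and spans Tnp1 on the other strand. Whether the counting kept the strands apart is not given in the sources used here, so its value is uncertain. Below 2-fold were Gstm5 (a glutathione transferase, 0.95), Pebp1 (a lipid-binding kinase inhibitor, 0.94), Gm5617 (0.87), Rpl41 (a ribosomal protein, 0.75), Gsg1 (a germ cell protein, 0.74) and Spa17 (a sperm tail protein, 0.65). All but Hspb9, Rpl41 and Pebp1 had a UMI in every transcript-poor barcode, and those were seen in 99.9%, 99.9% and 99.6%.

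The 12 lowest genes were nearly gone from the Prm2-led barcodes. H2al3, an X-linked H2A-like histone variant, stood at 126 CPM in transcript-poor and 706 CPM in transcript-rich barcodes, a log2 ratio of -2.48 (-2.71 to -2.28). In Prm2-led barcodes it was at 18.7 CPM and in Prm1-led ones at 477 CPM. Hemgn, a nuclear protein also made in red cell precursors, had the lowest ratio at -2.66, with 36.7 against 237 CPM. Prss52, a testis serine protease, had -2.59, and the antisense RNA Usp46os1 -2.54. Iqcf6, Fam71b, 1700030F04Rik, Ccdc185, Dnajc9, Tuba8, Efcab3 and Cst13 lay between -2.53 and -2.24. Dnajc9 is a histone chaperone, Tuba8 an alpha tubulin and Cst13 a cystatin. In Prm2-led barcodes these 12 genes lay between 9.37 CPM in Efcab3 and 32.8 CPM in Cst13. They were at 68.2 to 225 CPM in the empty profile, above the Prm2-led level in each of the 12.

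Prm2-led and Prm1-led transcript-poor barcodes stood apart when each was set against all transcript-rich barcodes. In the Prm2-led range 174 genes were higher and 531 lower, 12.9% and 39.4% of those compared, with a median log2 ratio of -0.57. In the Prm1-led range 18 were higher and 4 lower, 1.34% and 0.297%, with a median of -0.03. All 18 were more than 5 times as high in the empty profile as in transcript-rich barcodes (5.46 to 17.8 times), and they included Tomm7, Lyar, Cox6c and H3f3b. The 4 lower genes were Hemgn, Fam71b, 1700101O22Rik and 1700093K21Rik, at -1.20 to -1.05. Thus Prm1-led barcodes carried about the same relative transcript levels as the transcript-rich ones at a lower UMI total. The Prm2-led barcodes are part of the pooled sum, so the calls over all transcript-poor barcodes and those in the Prm2-led range are not independent.

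Setting Prm2-led transcript-poor barcodes against the 113 Prm2-led transcript-rich ones removed nearly all of these differences. Here 57 genes were higher, or 4.23%, and 0 were lower, or 0.00%, and the median log2 ratio was 0.02. All 57 were more than 5 times as high in the empty profile as in the Prm2-led transcript-rich barcodes (6.17 to 32.5 times), and 49 of them were under 100 CPM there. After the empty profile was subtracted, 42 of the 57 were still at least 2-fold higher, and the part of free RNA in them was not tested further. Over the 1347 genes, that subtraction gave 43 higher and 32 lower. The sums of the 57 in Prm2-led transcript-rich barcodes ran from 1 UMI in Dcun1d3 to 80 in Rpl13. The subtraction was cut at 0, so ratios after it can rest on very few UMIs, and these counts are uncertain. Hk1 stood at 1749 against 1582 CPM, Nbr1 at 1982 against 1731 and Dbil5 at 31696 against 31374. H2al3 was low in both, at 18.7 and 32.6 CPM. Levels of the 1347 genes in Prm2-led barcodes with 2000 to under 3000 UMIs had a Spearman correlation of 0.97 with the Prm2-led transcript-rich ones and of 0.54 with all transcript-rich ones, as a description across genes. For 1000 to under 2000 UMIs these values were 0.89 and 0.49. Prm2-led barcodes thus resembled each other across UMI totals more than they resembled the other transcript-rich barcodes.

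Within the Prm2-led range, counts per barcode were lower at lower totals. From at least 4000 UMIs to 1000 to under 2000 UMIs, with medians of 5129 and 1646.5 in 113 and 126 barcodes, Prm2 went from 1237 to 342 UMIs per barcode and Dbil5 from 136 to 44.6. Smcp went from 85.6 to 31.6 and Rpl41 from 39.8 to 11.8. Hk1 went from 6.87 to 2.77. As shares of all UMIs, Dbil5 went from 2.39% to 2.78% and Hk1 from 0.120% to 0.173%. The shares of Prm2 (21.7% and 21.4%) and Prm1 (1.98% and 0.826%) are held by the gate and by the limit on the Prm2 fraction, and nothing is read from them.

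Gene lists chosen for the parts of the sperm were then examined, against shares of 4.90% higher and 25.1% lower among all genes. The lists for sperm glycolysis and the sperm tail divided within themselves. The median log2 ratio was 0.84 for sperm glycolysis, with 3 of 10 genes higher (Hk1, Aldoa and Tpi1) and 0 lower. That median was 0.10 with a gate of 30%, -0.05 in Prm1-led barcodes and 0.12 between Prm2-led barcodes. Aldoa, an aldolase listed on 2 gene identifiers of which 1 was used, had 1.17 (1.06 to 1.28), and Ldhc, the testis lactate dehydrogenase, had -0.71. For outer dense fibre and fibrous sheath genes the median was 0.45, with 1 of 16 higher and 5 lower, counts near those of all genes. The median was 0.09 with a gate of 30% and turned to -0.08 in Prm1-led barcodes. Odf1, the main outer dense fibre protein, had 1.02 and Oaz3, a testis antizyme, 0.95, whereas Spag4 had -2.03 and Odf3b -1.90. The median of the late spermatid markers was 0.87, with 2 of 9 higher and 1 lower, the last being Hils1, a linker histone of spermatids, at -1.81. This median was 0.17 with a gate of 30% and -0.0074 in Prm1-led barcodes.

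The lists for the nucleus, the acrosome and the manchette were counted next. Of 8 nuclear protein genes outside the gate, 5 were lower and 0 higher, with a median of -1.39, which was -0.16 in Prm1-led barcodes and -0.36 with a gate of 30%. Cdyl, a chromatin reader, had -2.10 and Hmgb4, a DNA-bending protein, -1.94 at 1298 against 4980 CPM. Tssk6, a kinase of the condensing nucleus, had 0.82, and Brdt, a bromodomain protein that was under 100 CPM, had 0.75. Of 7 acrosome genes, 4 were lower and 0 higher, with a median of -1.41, which was -0.02 in Prm1-led barcodes and -0.40 with a gate of 30%. Iqcf1 had -1.96 and Izumo3 -1.54. Zpbp2 and Zpbp, which bind the egg coat, had 1.25 and 0.93 at means of 42.5 and 42.0 CPM, below the level for a call, and stood at 397 and 394 CPM in the empty profile. For the manchette and head-shaping genes the median was -0.21, with 0 of 11 higher and 5 lower, and it was -1.19 with the empty profile subtracted and 0.02 in Prm1-led barcodes. Among them Cylc1, a protein of the calyx, had -1.96 and Ccin, another calyx protein, -2.07 at a mean of 94.9 CPM, while Spem1 had 0.87.

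**Figure D5:**
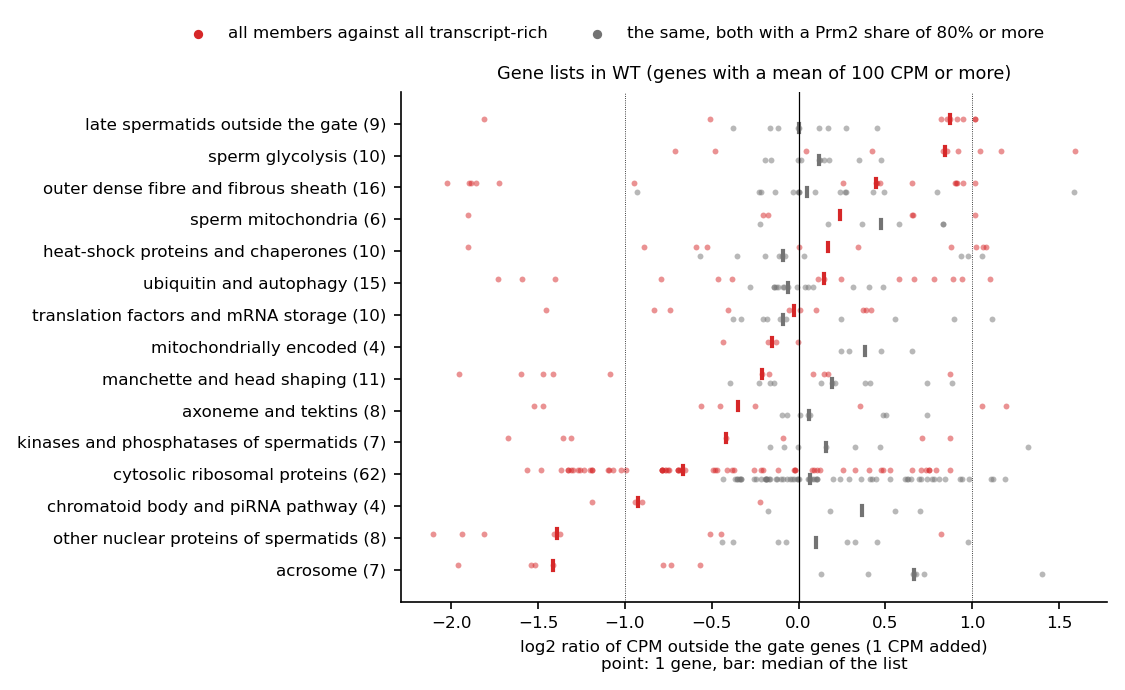
Log2 ratio of CPM outside the gate genes (horizontal axis) for the genes of each list with a mean of at least 100 CPM in WT. Red points compare all transcript-poor with all transcript-rich barcodes, gray points compare Prm2-led with Prm2-led barcodes, and bars are list medians; the red median of the acrosome list is -1.41 and the gray one 0.67.

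Among cytoplasmic systems, the ribosomal protein genes were examined first. Of 62 cytosolic ribosomal protein genes, 17 were lower and 0 higher, with a median of -0.66. That count of lower genes was near the share of 25.1% among all genes. In Prm2-led barcodes 34 were lower and 1 higher, with a median of -1.15, beside 39.4% lower among all genes. The median of -0.66 turned to 0.10 with a gate of 30%, and was 0.09 in Prm1-led barcodes. Rps7 had -1.56 and Rplp0 -1.48, whereas Rplp1 had 0.87 and Rps27a, at a mean of 59.3 CPM, 0.90. Near-identical copies of these genes exist, so single values are uncertain. Among translation factors and mRNA-storage proteins, 1 of 10 was lower and 0 higher, with a median of -0.02. The 1 was Ybx3, which packages stored mRNA, at -1.45. Eef1a1, the elongation factor that delivers aminoacyl-tRNA, had 0.42, Eef2 had -0.83, and the initiation factor Eif2s2, at a mean of 80.7 CPM, had 0.91. Of 4 chromatoid body and piRNA genes, 1 was lower and 0 higher, with a median of -0.92, or -1.68 with the empty profile subtracted. The median was -0.03 with a gate of 30% and -0.21 in Prm1-led barcodes. Gtsf1 had -1.19 and Gtsf1l -0.94. Ddx25 itself was scarce, at 33.2 CPM in transcript-poor barcodes (48 UMIs), 23.5 in transcript-rich ones and 152 in the empty profile, and Ddx4, another RNA helicase, was at 26.3, 17.3 and 225 CPM.

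The other lists divided within themselves. Among ubiquitin and autophagy genes, 1 of 15 was higher and 3 lower, with a median of 0.15. Optn, an autophagy receptor, had 1.10 and Ube2n, a ubiquitin-conjugating enzyme, 0.94 at 5296 against 2758 CPM, whereas Ube2b, another conjugating enzyme, had -1.73 and Rnf151, a ubiquitin ligase, -1.59. Among heat-shock proteins and chaperones, 3 of 10 were higher and 1 lower, with a median of 0.17. Hspa2 had 1.08, with 777 CPM in the empty profile against 65.4 in transcript-rich barcodes, and Dnajb7 had -1.90. Dnajb13, at a mean of 89.9 CPM, had -0.95. Of 7 kinases, phosphatases and associated genes, 0 were higher and 3 lower, with a median of -0.42, or -1.08 with the empty profile subtracted. The median was -0.18 with a gate of 30% and -0.12 in Prm1-led barcodes. Tssk3 had 0.71, Tssk1 -1.68 and the phosphatase inhibitor Ppp1r2 -1.35. Of 8 axoneme and tektin genes, 2 were higher and 2 lower, with a median of -0.35. Rsph1, a radial spoke protein, had 1.06 with 1184 CPM in the empty profile, Dynll2, a dynein light chain, had -1.53, and Tekt5, at a mean of 44.5 CPM, had -2.44.

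Nuclear and mitochondrially encoded genes for mitochondrial proteins were examined apart. Of 6 nuclear genes for sperm mitochondria, 1 was higher and 1 lower, with a median of 0.24 that turned to -0.06 when the empty profile was subtracted. These were Smcp and Spata19, the latter at -1.90. Gpx4, the selenoprotein of the mitochondrial capsule, had -0.20 at 4916 against 5667 CPM, and the testis cytochrome c gene Cyct was at 36.0 against 12.1 CPM, with 205 CPM in the empty profile. All 13 mitochondrially encoded genes together stood at 770 CPM in transcript-poor, 917 in transcript-rich and 3707 in empty barcodes, where the rule had set a limit on them. Of the 4 that were compared, 0 passed 2-fold, and their median of -0.15 turned to 0.59 with a gate of 15% and was -0.78 with the empty profile subtracted. It was 0.81 with a gate of 30%, 0.63 in Prm1-led and -0.73 in Prm2-led barcodes, so the pooled value has no stable direction. mt-Co1, a cytochrome c oxidase subunit, was at 195 and 196 CPM, and mt-Nd1, mt-Cytb and mt-Nd4 were at 30.4, 29.7 and 16.6 CPM in transcript-poor barcodes. The 6 nuclear noncoding RNAs examined, summed to 49.1 CPM in transcript-poor, 89.2 in transcript-rich, 373 in empty and 1666 in other WT barcodes of this UMI range, and 4 of the 6 were at 0 in the transcript-poor barcodes.

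The Prm2-led barcodes of both groups were also compared by list. Set against Prm2-led transcript-rich barcodes, the list medians ran from -0.09 to 0.67. Since 0 of all 1347 genes were lower by 2-fold here, 0 in every list follows, and nothing is read from it. The highest medians were 0.67 for the acrosome, 0.47 for sperm mitochondria and 0.38 for the mitochondrially encoded genes. Izumo3 and Tssk1, the genes higher in the acrosome and kinase lists, were at 34.0 and 83.2 CPM against 12.2 and 32.6, with 240 and 521 CPM in the empty profile. The cytosolic ribosomal list held 3 higher genes of 62 (Rpl13, Rpl30 and Rpl37a), near the share of 4.23% higher among all genes. The outer dense fibre, translation factor and heat-shock lists held 1 each (Akap3, Ybx3 and Hspa2), of 16, 10 and 10 genes. Nothing is read from such small counts.

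Lengths of the transcripts, which the rule had not used, were examined next. Among genes with an annotated coding transcript, the median length of the 3′ untranslated region was 502 bases for 55 of the 66 higher genes, 341 bases for 299 of the 338 lower genes and 497 bases for 859 of the 943 others. The interquartile ranges were 224.5 to 1251.5, 126 to 1545 and 162 to 1505.5 bases and overlapped. The median coding length was 1029, 849 and 891 bases. Across the 1213 genes with a value, the Spearman correlation of the log2 ratio with 3′ untranslated region length was 0.07, with transcript length 0.07 and with number of exons 0.05, as descriptions without a test. Of 32 X-linked genes compared, 1 was higher and 16 lower, beside 25.1% lower among all genes. Among the 755 barcodes, the Spearman correlation of a gene's share with the Prm2 fraction was 0.92 for Dbil5, 0.77 for Tppp2 and 0.67 for Hk1, -0.41 for H2al3, and -0.02 for Lyar. With the UMI total, the corresponding values were -0.14, -0.11, -0.12, 0.02 and -0.03. Both measures of a barcode share its depth, and these are given as descriptions.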

How the data were processed

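Testicular cells of 3 genotypes were profiled by droplet single-cell RNA-seq, with 1 library each. The authors aligned reads to mm10 and deposited raw UMI counts per gene and barcode made with Cell Ranger (version 4 in the matrix header, version 2.1.1 in the submitters' processing notes), for every barcode of the kit and without a filter. Barcodes were selected by the limits given above in Python 3.11.15 with numpy 2.4.6, scipy 1.17.1 and pandas 2.3.3, and were summed by group. Counts per 1000000 UMIs (CPM) were scaled to UMIs outside the 4 gate genes, and ratios used a pseudocount of 1 CPM. Genes with a mean of at least 100 CPM were compared, and a 2-fold difference was the limit for a call. With 1 library per genotype, no test between genotypes could be made. Intervals are exact Poisson (ratios) or binomial (shares) at 95%. UMI totals per library ranged from 73150373 to 91388296.

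The members and the gene lists were chosen with earlier results of these data known. The genes named are the 12 highest and 12 lowest ratios, the 10 most abundant genes outside the gate, and the highest and lowest of each list with a mean of at least 20 CPM. Some genes outside that rule are named where a count of 5 or fewer called for it, after their values were seen. In simulated counts for 1441 genes, all 200 genes changed by 1.5 or 3 on the log2 scale were called, and 0 of 1241 unchanged genes. Those counts had counting error only, without free RNA, mixed composition or spread between barcodes. Every change lay beyond the limit for a call, and the known shift of the total was added back. The simulation therefore checks the arithmetic and not the calls made here. Doublets were not removed. Scrublet (scanpy 1.11.5) marked 172 WT barcodes (2.70%), 23 of them members, and 0 in KO and KI, where it is taken not to have worked. Positions are from GRCm38 (GENCODE M21) and promoters from RefSeq on GRCm38.p6.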

Additional observations from a re-analysis of the deposited data

How the results depend on the processing

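The comparisons were repeated under other settings, of which the division by Prm2 fraction was added after seeing the data. With a gate of 15%, KO held 1 and KI 2 barcodes. With a gate of 30%, WT held 105 barcodes, and 27 genes were higher and 28 lower. The highest gate share of a Prm2-led barcode was 28.1% in transcript-poor and 28.0% in transcript-rich ones, so this gate removes every Prm2-led barcode from both groups. The 371 barcodes with 1000 to under 2500 UMIs gave 104 higher genes and the 384 with 2500 to under 4000 gave 32. Against transcript-rich barcodes of 4000 to under 8000 UMIs, 0 genes were higher and 107 lower; against those of at least 8000 UMIs, 138 were higher. CPM of all UMIs gave 107 higher genes. With a minimum of 20 CPM, 167 of 3538 genes were higher and 812 lower. Prm2-led barcodes gave 174 higher and 531 lower genes, and Prm1-led ones 18 and 4. Without thinning, the median was 769 genes per barcode. Among genes past 2-fold, the log2 ratio changed sign at the 30% gate in Bri3bp (-0.33), Spem2 (-0.11), Fam71b (0.079), Rnf151 (0.14) and Gtsf1 (0.031). Among the same genes it changed sign in Prm1-led barcodes in Hk1 (-0.13), Nbr1 (-0.18), Bri3bp (-0.63), Phkg2 (-0.036), Spem2 (-0.47), Tppp2 (-0.17), Dbil5 (-0.077), Smcp (-0.0074), 1700027A15Rik (-0.17), Hspb9 (-0.12), Aldoa (-0.15), Dynll2 (0.041) and Optn (-0.47). Counting genes below 2-fold too, 18 of 95 named genes and 3 list medians changed sign at the 30% gate, 32 genes and 10 medians in Prm1-led barcodes, 6 genes and 1 median with the empty profile subtracted, and 5 genes and the mitochondrially encoded list (-0.15 to 0.59) at the 15% gate. Each other setting changed the sign of 5 genes or fewer and 2 medians or fewer. The cause was not tested for the other settings. Over all settings, 875 ratios of named genes lay within the counting interval of the reported value and 645 outside it. No paired analysis was possible because each genotype is 1 library. Depth limits genes under 100 CPM, which were not called.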
